A study of Mus musculus with 4 samples.

Results

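The cells described here are neutrophils in which the summed count of the chemokine mRNAs Ccl3 and Cxcl3 exceeded that of Retnlg, a resistin-family protein secreted by neutrophils, and Il1r2, the decoy receptor for interleukin 1. They were found in 4 single-cell libraries from mice, one library per group, all labelled as lymph node. One group was the control (ctrl). The others had received 2DG (2-deoxy-D-glucose, which hexokinase phosphorylates but glycolysis cannot use further), an agent labelled aPDL1, or the pair of them (2DG_aPDL1). The series title refers to ovarian tumours and checkpoint blockade, and the design text to young and aged animals, but the labels give no tumour, strain, age, sex, dose, time or number of animals for any library. A cell was kept at 500 or more detected genes and at most 10% mitochondrial counts, which left 35372 of 38068 barcodes. Neutrophils were then gated by at least 1 unique molecular identifier (UMI, one counted mRNA molecule) of Csf3r, a sum of at least 10 for S100a8, S100a9 and G0s2, and none for Csf1r and Adgre1, C1qa, C1qb and C1qc, Cd3e, Cd3d and Cd3g, or Cd79a. Of 2072 gated neutrophils, 908 had more Ccl3 and Cxcl3 than Retnlg and Il1r2, 1112 had the reverse and are called the other neutrophils, and the rest had equal sums.

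Ccl3 encodes a CC chemokine (MIP-1 alpha) that acts on monocytes, macrophages and lymphocytes. Cxcl3 encodes a CXC chemokine that attracts neutrophils through CXCR2. Neutrophils leave the bone marrow with granule proteins already made, and granule gene mRNA falls as they mature, whereas chemokine genes are induced in tissue by danger signals, largely through NF-kB. Neutrophils with high chemokine and low granule mRNA are a recurrent state in mouse tumours. G0s2 encodes an inhibitor of fat breakdown and Acod1 the enzyme that makes itaconate.

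Both chemokine genes chose the cells, so their promoters are shown for orientation. Each runs from 250 bases before to 50 bases after the gene's start, 5′ to 3′ on the gene's strand (RefSeq, GRCm38.p6). The Ccl3 window is chr11:83649329-83649628 on the minus strand and the Cxcl3 window is chr5:90785851-90786150 on the plus strand. Capitals mark matches to 4 motifs searched on both strands, none of which overlapped: NF-kB (GGG, then any 2 bases, then TTTCC), AP-1 (TGANTCA), C/EBP (TTGCNNAA) and the TATA box (TATAAA).
Ccl3: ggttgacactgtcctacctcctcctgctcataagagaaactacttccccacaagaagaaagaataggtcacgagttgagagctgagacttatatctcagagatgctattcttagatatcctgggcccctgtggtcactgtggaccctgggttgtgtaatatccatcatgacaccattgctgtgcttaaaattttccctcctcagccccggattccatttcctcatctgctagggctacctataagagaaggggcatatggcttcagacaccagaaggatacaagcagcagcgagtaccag
Cxcl3: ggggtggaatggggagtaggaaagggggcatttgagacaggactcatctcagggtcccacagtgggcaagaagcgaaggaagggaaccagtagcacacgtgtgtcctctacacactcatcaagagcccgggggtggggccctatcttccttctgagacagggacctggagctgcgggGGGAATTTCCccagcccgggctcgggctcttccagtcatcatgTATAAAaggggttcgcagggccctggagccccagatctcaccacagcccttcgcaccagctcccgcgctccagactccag
The Cxcl3 window held an NF-kB match beginning 73 bases before the start and a TATA box beginning 30 bases before it. The Ccl3 window held none of these letters. Retnlg and Il1r2, the genes on the other side of the rule, were searched in the same way and are not printed. The Retnlg window held a C/EBP match beginning 246 bases before the start, and the Il1r2 window held no match. Of 32851 promoters of the same length, 1.63% had the NF-kB letters, 7.81% the AP-1, 10.8% the C/EBP and 13.6% the TATA letters. These are letter matches, and binding was not measured.

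Libraries held 61859753 to 73885214 UMIs over 8701 to 9948 barcodes. The tissue label was checked against markers: cells with a Cd3 chain UMI made up 8.51% of kept cells in ctrl and 36.3% to 43.1% in the treated libraries, and Cd79a was seen in 1.22% to 6.13%. Ccl21a, Ccl19, Glycam1 and Madcam1, which mark lymph node stroma and vessels, were each seen in 0 to 3 cells per library. Cr2, on the same marker list, was seen in more cells, at 0.66%, 0.919%, 1.39% and 1.83% of kept cells in ctrl, 2DG, aPDL1 and 2DG_aPDL1. The epithelial marker Epcam was seen in 1.15% to 1.84%. Library pairs shared 22 to 30 barcodes. In the pairs of ctrl with 2DG, aPDL1 and 2DG_aPDL1, 3, 1 and 3 Ccl3/Cxcl3 neutrophils had a barcode that was also in the paired library. No shared barcode was a Ccl3/Cxcl3 neutrophil in both libraries of a pair. With 1 library per group there is no replicate, so no test between groups was possible. Intervals below are exact 95% intervals (Clopper-Pearson for shares, Poisson for levels) and cover counting error only. Levels are UMIs per 1000000 (CPM) of the summed UMIs of a class of cells in one library.

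Most of the Ccl3/Cxcl3 neutrophils came from the control library: 821 in ctrl, 18 in 2DG, 45 in aPDL1 and 24 in 2DG_aPDL1. As a share of kept cells they were 9.03% (8.45% to 9.64%) in ctrl, 0.227% (0.134% to 0.358%) in 2DG, 0.498% (0.363% to 0.665%) in aPDL1 and 0.258% (0.166% to 0.384%) in 2DG_aPDL1. All gated neutrophils were also scarcer in the treated libraries, at 1.17% to 1.89% of kept cells against 18.4% in ctrl. Within gated neutrophils the Ccl3/Cxcl3 cells were 49.1% (46.7% to 51.5%) in ctrl, 12% (7.27% to 18.3%) in 2DG, 32.1% (24.5% to 40.6%) in aPDL1 and 22% (14.6% to 31.0%) in 2DG_aPDL1. The ctrl interval lay above the other 3, while aPDL1 and 2DG_aPDL1 overlapped, as did 2DG and 2DG_aPDL1. Depth moved with these shares: gated cells of both classes had median UMIs of 3857 and 3884 in ctrl and 2439 to 3084.5 elsewhere. When each cell was thinned to 1000 UMIs, leaving out 16 shallower cells of ctrl and 1 of aPDL1, the shares were 47.1%, 10.0%, 28.8% and 21.1% in the same order. How many cells each sample held before loading, and any sort, are not in the labels.

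**Figure D1:**
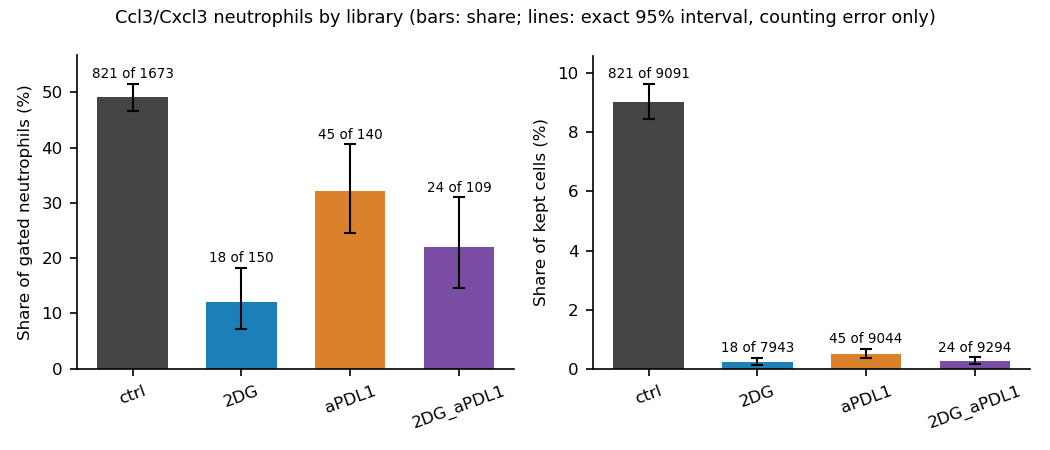
Ccl3/Cxcl3 neutrophils as a percent of gated neutrophils (left) and of kept cells (right) in each of the 4 libraries. Bars are shares and lines exact Clopper-Pearson 95% intervals. At the left the ctrl share of 49.1% lies above the intervals of 2DG (12%), aPDL1 (32.1%) and 2DG_aPDL1 (22%).

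The rule sets a boundary inside a continuum. In ctrl, 107 cells were ahead by only 1 to 4 UMIs (median 7 of Ccl3 and Cxcl3 against 5 of Retnlg and Il1r2) and 114 cells were behind by 1 to 4 (median 5 against 8). Cells ahead by 5 or more numbered 714 in ctrl, 13 in 2DG, 32 in aPDL1 and 19 in 2DG_aPDL1. Just inside the boundary were 5, 13 and 5 cells in the 3 treated libraries, and just outside it 5, 10 and 14.

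The next values are those the rule used, and they describe the cells without testing anything. Ccl3 was at 4609 CPM (4545 to 4674) in ctrl, 5502 (4917 to 6138) in 2DG, 5377 (4979 to 5799) in aPDL1 and 7450 (6815 to 8129) in 2DG_aPDL1. In the other neutrophils Ccl3 was at 1016, 113, 457 and 483 CPM. Cxcl3 was at 5527 CPM (5457 to 5599) in ctrl, 2520 (2129 to 2961) in 2DG, 1723 (1501 to 1969) in aPDL1 and 2297 (1951 to 2687) in 2DG_aPDL1. One cell gave 49.0% of the Cxcl3 UMIs in 2DG. Cxcl3 in the other neutrophils was at 1430, 179, 193 and 327 CPM. Retnlg was at 996, 1303, 247 and 353 CPM in the Ccl3/Cxcl3 neutrophils and at 5261, 7951, 11744 and 2707 CPM in the others. Il1r2 was at 1869, 2280, 1276 and 1487 CPM against 5365, 6628, 6130 and 5669 CPM. The alarmin pair was lower too: S100a8 was at 13340, 17038, 10100 and 10557 CPM against 29906, 43857, 52890 and 40240 CPM. S100a9 was at 17946, 21597, 14265 and 12780 CPM against 37632, 54764, 55846 and 40682 CPM. Csf3r, the receptor for granulocyte colony-stimulating factor, was at 1041, 943, 1564 and 1222 CPM against 1703, 1538, 1616 and 1642 CPM, and in aPDL1 the 2 classes were therefore nearly level.

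The 2 chemokines chosen together were not in constant proportion. Ctrl cells held 0.834 Ccl3 UMIs per Cxcl3 UMI (0.818 to 0.850). That ratio, which library scaling does not touch, was 2.18 (1.79 to 2.67) in 2DG, 3.12 (2.67 to 3.65) in aPDL1 and 3.24 (2.71 to 3.91) in 2DG_aPDL1. Counted by cell, Ccl3 was ahead of Cxcl3 in 334 of 821 cells (40.7%, 37.3% to 44.1%) in ctrl, 13 of 18 (72.2%, 46.5% to 90.3%) in 2DG, 34 of 45 (75.6%, 60.5% to 87.1%) in aPDL1 and 20 of 24 (83.3%, 62.6% to 95.3%) in 2DG_aPDL1. In ctrl 696 cells held both mRNAs, 68 held Ccl3 alone and 57 held Cxcl3 alone. In the treated libraries both were seen in 13, 30 and 14 cells, Ccl3 alone in 4, 12 and 8, and Cxcl3 alone in 1, 3 and 2. The summed count per cell had a median of 40 UMIs in ctrl (1 to 370), 17.5 in 2DG (5 to 80), 13 in aPDL1 (1 to 118) and 22 in 2DG_aPDL1 (2 to 100). Among cells that lack C1q but carry monocyte or macrophage genes, Cxcl3 was also higher in ctrl, at 1485 CPM against 42.0, 119 and 55.9 CPM, and in T cells it was at 57.5 CPM in ctrl against 0.125 to 0.959 CPM. The part of free RNA in these levels was not tested.

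**Figure D2:**
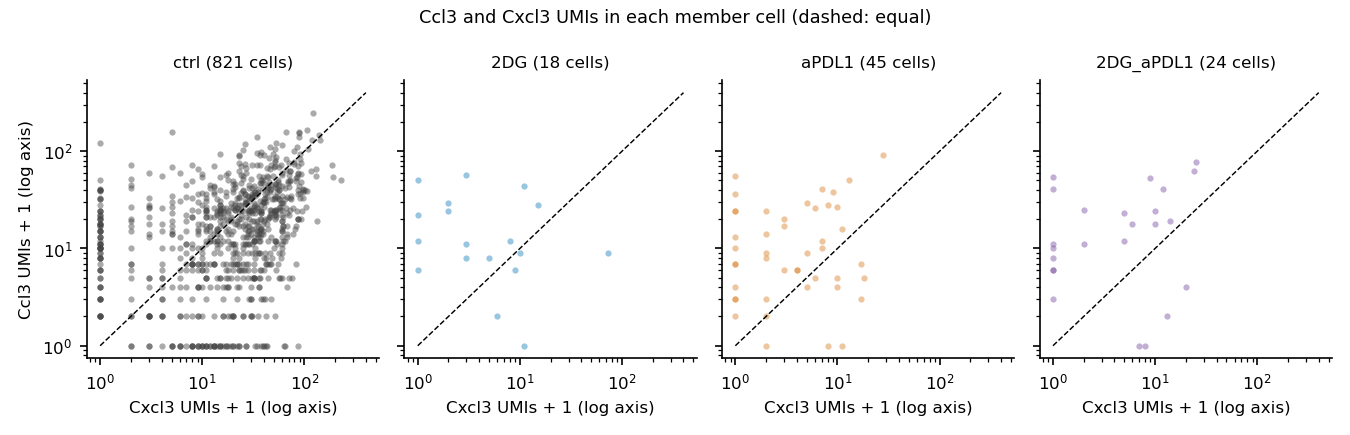
Ccl3 against Cxcl3 UMIs in each Ccl3/Cxcl3 neutrophil, one panel and one point per cell for each library, both axes on a log scale of UMIs plus 1, with a dashed line where the counts are equal. Ccl3 is ahead in 40.7% of the 821 ctrl cells and in 72.2% to 83.3% of the cells of the treated libraries.

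Of the 4 marker genes given for these cells, G0s2 and Acod1 did not separate them from the other neutrophils in ctrl. G0s2 was at 2839, 3291, 3454 and 3254 CPM in ctrl, 2DG, aPDL1 and 2DG_aPDL1 and at 3676, 2176, 1824 and 2734 CPM in the other neutrophils. Acod1 was at 4429, 6565, 8417 and 6714 CPM against 4770, 3499, 4725 and 6764 CPM. Both genes were thus lower in ctrl (log2 ratio −0.37 and −0.11) and higher in 2DG and aPDL1, and Acod1 was level in 2DG_aPDL1 (−0.01, −0.16 to 0.14). With trimmed-mean (TMM) scaling the Acod1 ratio in ctrl was 0.03 and the G0s2 ratio in 2DG_aPDL1 was −0.17, so those signs depend on the scaling. All 15 neutrophil markers were detected in each library, but 6 of them, Csf3r, S100a8, S100a9, G0s2, Retnlg and Il1r2, are genes the rule used. Siglecf, used for a tumour neutrophil type in lung, had 4.22 CPM in ctrl, 7.98 in aPDL1 and none in 2DG or 2DG_aPDL1.

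Marker lists of other cell types were summed in these cells. The macrophage and monocyte list summed to 497, 360, 375 and 545 CPM, with 9 of 14 genes detected in ctrl and 4 to 6 elsewhere. The 5 genes of that list set to 0 by the gate, C1qa, C1qb, C1qc, Csf1r and Adgre1, were at 0. The dendritic cell list summed to 309 to 395 CPM, and Flt3, Xcr1, Clec9a, Zbtb46, Ccr7 and Fscn1 were at 0 in every treated library. In ctrl 17 cells (2.07%) with 5 or more MHC class II UMIs held 74.5% of these cells' MHC class II UMIs. Against the other neutrophils of ctrl, 4 of 6 compared dendritic cell genes and 3 of 5 MHC class II genes were at least 2-fold higher, with median log2 ratios of 1.18 and 1.14. The medians were −0.98 and −1.80 in 2DG and −1.58 and −1.61 in aPDL1, over 2 to 4 genes, and their part in the other results was not tested. The immature neutrophil list summed to 284, 103, 23.9 and 515 CPM, and 1 cell held 29 of its 35 UMIs in 2DG_aPDL1. The NK list was at 766 CPM in aPDL1 against 0 to 14.7 CPM elsewhere, and 1 aPDL1 cell held 93 of its UMIs. Mast cell, eosinophil, epithelial, B cell, lymph node stroma and T cell lists reached at most 104 CPM in any library, the fibroblast and endothelial list 168 CPM in ctrl, and the erythroid list 207 CPM in ctrl, with up to 675 UMIs in 1 cell.

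Against the other neutrophils, 19 genes were at least 2-fold higher in all 4 libraries and 58 at least 2-fold lower, of 1367 genes with 30 UMIs or more in the higher class of each library. That is 1.39% and 4.24% of the genes compared. The filter is on raw UMIs, and in 2DG, aPDL1 and 2DG_aPDL1 the Ccl3/Cxcl3 neutrophils held 58342, 125344 and 67917. The other neutrophils held 540462, 326127 and 263019, so genes higher in them passed more readily. The excess of lower genes is therefore partly set by the filter, as are the counts within single treated libraries. The rule picked both classes from these same cells, so nothing here is a test. Asked of 3 libraries, the 77 genes became 163 without 2DG_aPDL1 and 123 without ctrl. Alone, ctrl had 5.99% of 6881 genes at least 2-fold higher and 9.65% lower. The shares were 12.2% and 25.2% of 2624 genes in 2DG, 15.1% and 26.5% of 1778 in aPDL1, and 8.76% and 14.8% of 1506 in 2DG_aPDL1.

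Among chemokines outside the rule, Ccl4, which encodes the CC chemokine MIP-1 beta, stood out. It was at 3225 CPM in ctrl, 3788 in 2DG, 11744 in aPDL1 and 6361 in 2DG_aPDL1, against 1163, 457, 1006 and 1536 CPM in the other neutrophils. The log2 ratios were 1.47 (1.42 to 1.52), 3.05 (2.78 to 3.32), 3.54 (3.37 to 3.72) and 2.05 (1.85 to 2.25). Cxcl2, a neutrophil attractant that signals through CXCR2 as Cxcl3 does, was at 33684, 34212, 29838 and 34689 CPM against 19371, 9501, 12970 and 16725 CPM. Ccl6 was at 3343, 2708, 3486 and 1178 CPM against 1947, 770, 1052 and 490 CPM, and 1 cell gave most of its 2DG UMIs. Cxcl2 and Ccl6 missed the 2-fold mark in ctrl alone (0.80 and 0.78). The CC chemokine list also holds Ccrl2, a receptor and not a chemokine. Ccl3 aside, 6 of 9 compared genes of the list were at least 2-fold higher in ctrl. The numbers were 3 of 3 in 2DG, 4 of 4 in aPDL1 and 2 of 4 in 2DG_aPDL1, and none was 2-fold lower. The list's medians were 1.47, 1.82, 2.64 and 0.72, beside −0.02, −0.23, −0.23 and −0.10 over all genes.

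Il1a, an alarmin cytokine, was at 521, 531, 670 and 825 CPM against 209, 79.6, 107 and 221 CPM in the other neutrophils. Il1rn, the natural antagonist of the same receptor, was at 1667, 2485, 3598 and 2017 CPM against 709, 313, 494 and 582 CPM, with log2 ratios of 1.23, 2.99, 2.86 and 1.79. Il1b, the other agonist, was at 3800, 4971, 6390 and 6478 CPM against 6378, 4751, 4327 and 8885 CPM. Its log2 ratios were −0.75, 0.07, 0.56 and −0.45, and under TMM the 2DG ratio was −0.23. Il1a and Il1rn thus lay above the other neutrophils in every library, and the receptor decoy Il1r2, a gene of the rule, below them.

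Other secreted factors were higher as well. Inhba, an activin subunit, was at 344, 429, 335 and 633 CPM against 117, 98.1, 107 and 76.0 CPM, but from only 3 cells in 2DG and 4 in 2DG_aPDL1. Csf1, the macrophage growth factor, was at 433, 1423, 1237 and 883 CPM against 366, 340, 245 and 460 CPM, and so differed little in ctrl (log2 ratio 0.24, 0.14 to 0.34). Tnf was at 100, 1046, 527 and 368 CPM against 48.4, 64.8, 123 and 209 CPM, and 1 cell gave 59.0% of its 2DG UMIs. The interleukin and TNF family list also holds Cd274 and Thbs1, which belong to neither family. Of its compared genes, 4 of 18 were at least 2-fold higher in ctrl and 1 lower. The numbers were 8 of 12, 8 of 12 and 2 of 8 higher in 2DG, aPDL1 and 2DG_aPDL1, with none lower. F10, which encodes coagulation factor X, was at 816, 360, 471 and 780 CPM against 344, 146, 92.0 and 182 CPM. Cd274, which encodes PD-L1, the target named by the aPDL1 label, was at 1904, 2657, 2545 and 2253 CPM against 978, 855, 1076 and 1354 CPM, and its ratios were 0.96, 1.64, 1.24 and 0.74.

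Hypoxia response genes formed the second group. Hilpda, a lipid droplet protein induced by low oxygen, was at 2502, 463, 758 and 986 CPM against 966, 90.7, 209 and 98.9 CPM, and 1 cell gave 66.7% of its 2DG UMIs. Ero1l, an oxidase of protein folding, was at 2372, 531, 1173 and 618 CPM against 1144, 172, 276 and 148 CPM. Egln3, an oxygen-sensing hydroxylase, was at 1241, 668, 1197 and 692 CPM against 657, 229, 442 and 53.2 CPM, and 1 cell gave 70.2% of the UMIs in 2DG_aPDL1. Hk2, the hexokinase that phosphorylates glucose and also 2DG, was at 672, 446, 997 and 368 CPM against 333, 137, 187 and 141 CPM. Slc2a1, the glucose transporter GLUT1, was at 991, 480, 989 and 412 CPM against 690, 248, 340 and 224 CPM. Vegfa, the vessel growth factor, had ratios of 0.87, 0.58, 0.36 and 0.98, and the intervals of the 3 treated libraries included 0. Of the hypoxia list, 25 of 28 compared genes were higher in ctrl, 7 of them at least 2-fold, and none was 2-fold lower. At least 2-fold higher were 7 of 22 genes in 2DG, 12 of 20 in aPDL1 and 7 of 14 in 2DG_aPDL1, with 4, 0 and 1 lower. The medians were 0.87, 0.67, 1.40 and 1.03, and each kept its sign under TMM (1.01, 0.37, 1.29 and 0.60).

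Per cell, hypoxia genes made up a median of 1.58%, 0.575%, 1.13% and 0.590% of UMIs in the Ccl3/Cxcl3 neutrophils and 0.834%, 0.379%, 0.343% and 0.375% in the others. The glycolysis list, which shares Hk2 and Slc2a1 with it, had medians of 0.58, 0.35, 0.77 and 0.84. Ldha, which makes lactate, was at 1197, 566, 598 and 515 CPM against 637, 257, 248 and 209 CPM. The lysosome and proton pump list had medians of 0.57, 0.81, 0.49 and 0.79. Its members Ctsb, a lysosomal protease, and Atp6v0c, a proton pump subunit, had log2 ratios of 0.79 to 1.92 and 0.84 to 1.23. Cstb, the inhibitor of cathepsins such as cathepsin B, was at 1156, 480, 415 and 648 CPM against 534, 161, 156 and 160 CPM. The oxidative phosphorylation list was lower in ctrl, 2DG and aPDL1, with medians of −0.42, −0.73 and −1.59, and was at 0.27 in 2DG_aPDL1, where TMM gave −0.16.

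Granule genes were lower, and this is near to the rule, which used Retnlg, S100a8 and S100a9. Without Retnlg, but with S100a8 and S100a9 still in the list, 18 of 25 compared granule genes were at least 2-fold lower in ctrl. The numbers were 19 of 26 in 2DG, 19 of 22 in aPDL1 and 16 of 20 in 2DG_aPDL1, and none was 2-fold higher in any library. The medians were −1.46, −2.80, −4.09 and −1.65. Lcn2, which binds bacterial siderophores, was at 433, 514, 231 and 265 CPM against 1690, 4570, 4225 and 3236 CPM. Pglyrp1, a peptidoglycan-binding protein, was at 87.1, 51.4, 87.8 and 147 CPM against 544, 1262, 1484 and 757 CPM. Mmp8, the neutrophil collagenase, was at 225, 68.6, 16 and 133 CPM against 619, 722, 1171 and 433 CPM. Mmp9, the gelatinase, was at 162, 1183, 231 and 721 CPM against 363, 1073, 1285 and 715 CPM, lower in ctrl and aPDL1 alone, and 1 cell gave 65.2% of its 2DG UMIs.

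The genes of late precursors were nearly missing. Camp, the cathelicidin antimicrobial peptide, was at 12.9 CPM in ctrl and 0 in the treated libraries, against 633, 3116, 2398 and 6289 CPM in the other neutrophils. Taking 3 UMIs per class and library as the floor, Camp was at least 60.6-fold lower in 2DG, at least 100.2-fold lower in aPDL1 and at least 142-fold lower in 2DG_aPDL1. Ngp was at 59.4, 0, 7.98 and 0 CPM against 911, 5379, 5645 and 6338 CPM, and 1 ctrl cell gave 87.7% of its ctrl UMIs. Ltf, lactoferrin, was at 50.2, 34.3, 0 and 29.4 CPM against 425, 2751, 2137 and 2167 CPM. Among the other neutrophils, Camp came from 27, 16, 17 and 6 cells, so a few cells carry these levels. Mpo, Elane and Ctsg, which encode granule enzymes of precursors, were at 0 in the Ccl3/Cxcl3 neutrophils of every library. Ly6g, the surface antigen used to sort neutrophils, was at 9.39, 0, 31.9 and 0 CPM against 74, 202, 294 and 114 CPM.

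**Figure D3:**
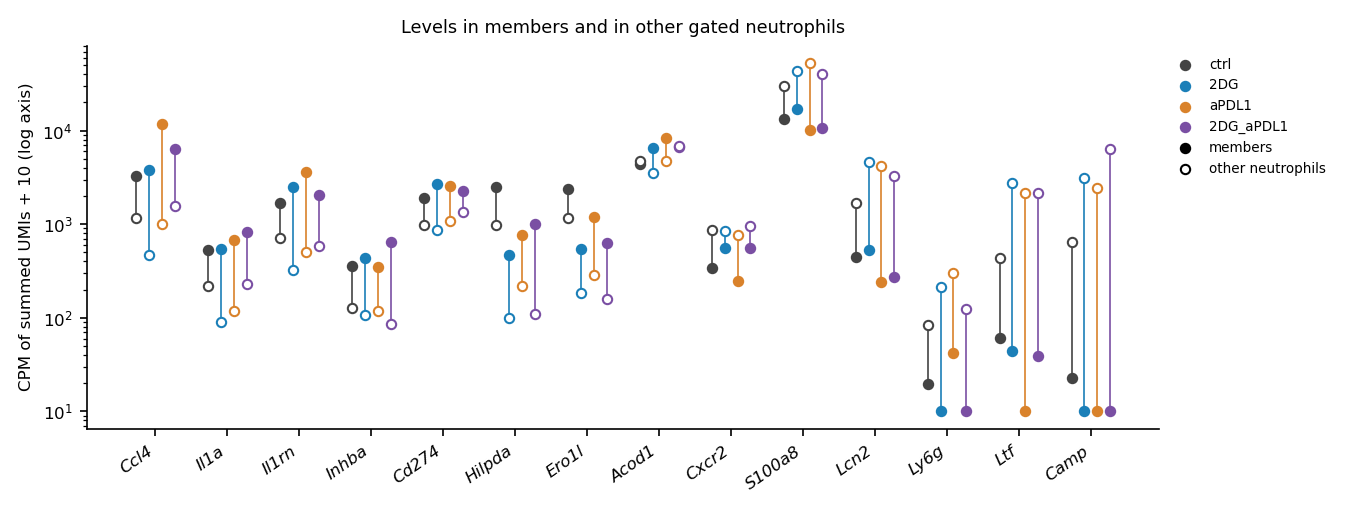
Levels of 14 genes in CPM plus 10, on a log axis, in the Ccl3/Cxcl3 neutrophils (filled, named members in the key) and the other neutrophils (open), joined by a line for each of the 4 libraries. Ccl4, Il1rn and Hilpda are higher and Lcn2, Ltf and Camp lower in the Ccl3/Cxcl3 neutrophils of all 4 libraries, and Acod1 is nearly level in ctrl and 2DG_aPDL1.

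Outside these groups, Dock10, a guanine nucleotide exchange factor, ranked first by its smallest ratio, at 1746, 977, 2026 and 1399 CPM against 590, 215, 248 and 449 CPM. Mreg, a protein of melanosome and lysosome transport, was at 497, 514, 710 and 427 CPM against 207, 57.4, 224 and 163 CPM. Fndc3a and Ifrd1 were higher by log2 ratios of 1.11 to 2.46 and 1.08 to 1.82. Lower genes by the same ranking also included Serpinb1a, an inhibitor of neutrophil proteases, Ifitm6, Pip5k1b, Sfxn5, Aldh2 and Fam129a. Serpinb1a was at 4.46 CPM in ctrl and 0 in the 3 treated libraries against 42.6, 185, 110 and 160 CPM.

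Interferon and NF-kB genes gave different values from library to library. The type I interferon list, genes of the antiviral response, had 2 of 37 compared genes at least 2-fold higher in ctrl and 1 lower, with a median of −0.22. In 2DG the numbers were 11 and 3 of 28 with a median of 0.79, in aPDL1 14 and 1 of 26 with 1.07, and in 2DG_aPDL1 4 and 1 of 26 with 0.29, which TMM turned to −0.14. Isg15, a ubiquitin-like modifier chosen after its values were seen, was at 484, 1714, 1636 and 1413 CPM against 509, 474, 451 and 715 CPM. Rsad2, the antiviral enzyme viperin, was at 738, 2057, 3758 and 2061 CPM against 734, 411, 770 and 989 CPM, and 1 cell gave 50% of its UMIs in 2DG and 55.0% in 2DG_aPDL1. The NF-kB list of subunits and feedback inhibitors, which also holds Plek, had medians of 0.26, 0.74, 0.78 and −0.13. Nfkbia, which encodes the inhibitor IkB alpha, was at 3918, 7370, 5154 and 4653 CPM against 2866, 1946, 2708 and 3889 CPM. Whether these ratios differ between libraries was not tested, since each group has 1 library.

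The comparisons between treatments rest on 18, 45 and 24 treated cells, with 58342, 125344 and 67917 UMIs, beside 4260711 UMIs in ctrl. The deepest single cell held 13.7% of the UMIs in 2DG, 7.17% in aPDL1 and 13.4% in 2DG_aPDL1, so values without it are given where it matters. To compare lists, 888 genes with a mean of at least 200 CPM over the Ccl3/Cxcl3 neutrophils of the 4 libraries were used. The other neutrophils were read for the same genes but had no part in the choice, so the 2 classes are not on an equal footing. Each library weighs alike in the mean and 3 of them are treated. Genes high in all treated libraries therefore passed more readily than genes high in ctrl alone, which also bears on the list counts below. TMM scaling lowered the median ratio of all these genes over ctrl by 0.71 in 2DG, 0.47 in aPDL1 and 0.90 in 2DG_aPDL1. In plain CPM those medians were 0.06, 0.02 and −0.01, and list ratios are best read against them. At least 1.5-fold higher than ctrl were 24.2% of genes in 2DG, 20.5% in aPDL1 and 26.1% in 2DG_aPDL1, and 21.3%, 15.8% and 24.8% were lower. For 2DG_aPDL1 the shares were 22.6% higher and 27.8% lower against aPDL1, and 21.6% and 22.7% against 2DG. All 3 treated libraries were above ctrl by that fold for 67 of the 888 genes (7.55%) and below it for 34 (3.83%). The choice of the 888 genes favours the first of these counts. The ratios of the 3 treated libraries share the same ctrl cells.

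Type I interferon genes were higher in the Ccl3/Cxcl3 neutrophils of the treated libraries. Of 20 such genes, 14 were at least 1.5-fold above ctrl in 2DG, 18 in aPDL1 and 15 in 2DG_aPDL1, and 1 was below in each. The median log2 ratios were 0.77, 1.46 and 1.03, and without the deepest cells 0.94, 1.53 and 1.24. With each cell given equal weight they were 0.80, 1.56 and 1.0. TMM gave 0.07, 0.99 and 0.13, each still above its own all-gene median of −0.65, −0.45 and −0.91. In the other neutrophils of the same libraries the medians were −0.08, 0.25 and 0.44, where all genes had −0.24, −0.22 and −0.12. Per cell, the list's median share of UMIs was 0.588% in ctrl, 0.682% in 2DG, 1.49% in aPDL1 and 1.57% in 2DG_aPDL1. The others had 1.01%, 1.41%, 1.15% and 0.978%. In 2DG the median cell thus had less of the list than the other neutrophils, while the median gene of the summed cells had more.

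Single genes of the list differed. Slfn4, a schlafen gene of myeloid cells, was at 1074 CPM (1044 to 1106) in ctrl, 1834 (1503 to 2216) in 2DG, 3462 (3144 to 3804) in aPDL1 and 1090 (856 to 1368) in 2DG_aPDL1. Only the aPDL1 and 2DG intervals lay above ctrl. Ifitm1, a membrane protein that blocks virus entry, went the other way at 1613 (1575 to 1651), 926 (695 to 1208), 1029 (859 to 1223) and 398 (262 to 578) CPM. Samhd1, which degrades nucleotides, was at 539, 669, 838 and 1885 CPM. Among interferon gamma response genes, 7, 6 and 7 of 9 were at least 1.5-fold higher, with medians of 0.87, 1.35 and 1.80. Those medians were 0.72, 1.03 and 1.68 in the other neutrophils, so that list lay higher in both classes. Gbp2, a guanylate-binding protein, was at 290, 960, 734 and 1001 CPM in the Ccl3/Cxcl3 cells and 260, 753, 619 and 1323 CPM in the others.

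Genes of antigen presentation by MHC class I were higher than ctrl in both classes in CPM. H2-K1, a classical heavy chain, was at 363, 1028, 750 and 1001 CPM, and at 360, 914, 1027 and 1004 CPM in the other neutrophils. B2m, the light chain, was at 1048, 1783, 1651 and 1546 CPM against 1000, 1179, 1269 and 1741 CPM. Of the 4 list genes compared, 4, 4 and 2 were at least 1.5-fold above ctrl, and TMM put the 2DG_aPDL1 median at −0.12 rather than 0.78. H2-Q7 was at 27.2, 223, 128 and 236 CPM, but reads of near-identical heavy chain genes may be shared.

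The NF-kB list was higher in CPM, with 9, 10 and 10 of 17 genes at least 1.5-fold above ctrl, 1 below in aPDL1, and medians of 0.68, 0.85 and 0.70. TMM turned the 2DG and 2DG_aPDL1 medians to −0.03 and −0.21, still above all genes. Its medians in the other neutrophils were −0.10, 0.13 and 0.75. Marcksl1, an actin regulator, was at 107, 309, 718 and 780 CPM. Tnfaip2, induced by TNF, was at 321 (305 to 339), 583 (404 to 814), 1077 (903 to 1275) and 1502 (1225 to 1823) CPM, and its interval in ctrl lay below the other 3. Icam1, an adhesion molecule, was at 52.1, 600, 303 and 280 CPM, with 74.3% of the 2DG UMIs from 1 cell. Cd274 was at log2 ratios of 0.48, 0.42 and 0.25 to ctrl, which TMM turned to −0.22, −0.05 and −0.65.

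Hypoxia genes were lower where 2DG was given. In 2DG 12 of 16 genes were at least 1.5-fold below ctrl and none above, and in 2DG_aPDL1 also 12 and 0. In aPDL1 5 were below and 1 above. The medians were −1.25, −0.06 and −0.95 for 2DG, aPDL1 and 2DG_aPDL1, and 2DG_aPDL1 stood at −0.74 against aPDL1, with 9 genes at least 1.5-fold lower. Without the deepest cells the medians were −1.20, 0.03 and −0.87, so the sign for aPDL1 alone is not settled. Ero1l was at log2 ratios of −2.13 (−2.72 to −1.65), −1.01 (−1.26 to −0.78) and −1.92 (−2.41 to −1.50) to ctrl. Plin2, which coats lipid droplets, was at 2277, 669, 798 and 545 CPM. Hilpda was lower in all 3, by ratios of −2.41, −1.72 and −1.33. Hk2 and Slc2a1 were lower than ctrl in both libraries with 2DG: Hk2 had ratios of −0.56, 0.57 and −0.84, and Slc2a1 of −1.02, 0.00 and −1.24, where TMM would lower each by the shift given above. The glycolysis list had medians of −0.59, −0.02 and −0.42.

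In the other neutrophils the same 16 hypoxia genes had medians of −1.37, −0.95 and −1.40. In aPDL1 the list median was thus −0.06 in the Ccl3/Cxcl3 neutrophils and −0.95 in the others. The medians of all 888 genes were 0.02 and −0.22 in the same order. These genes were chosen by their level in the Ccl3/Cxcl3 neutrophils alone. The difference between the classes was not tested. Cells with 5 or more MHC class II UMIs numbered 17 in ctrl and 0, 1 and 1 in the treated libraries.

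**Figure D4:**
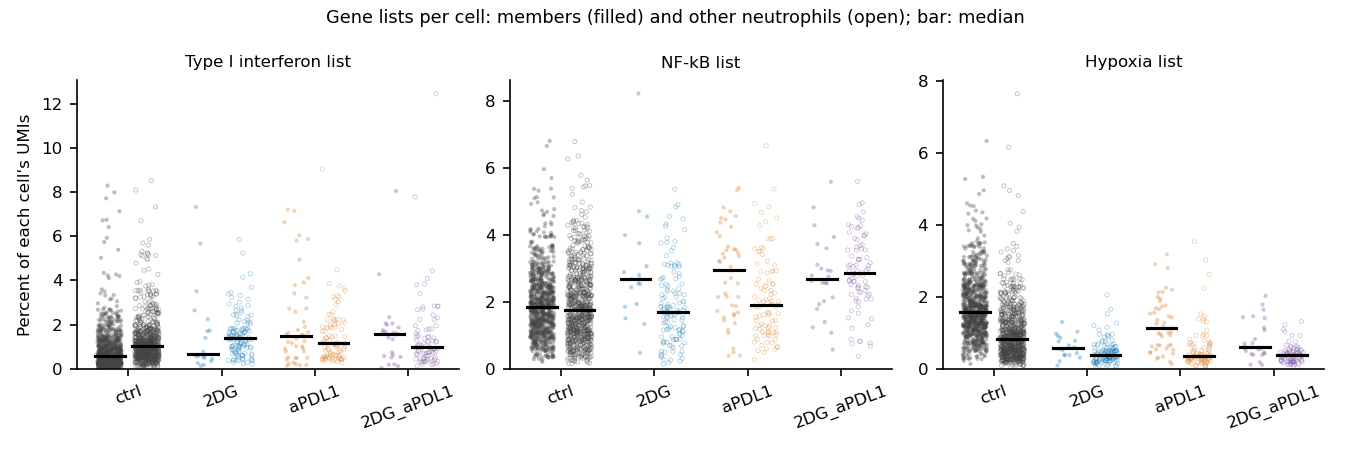
Percent of each cell's UMIs from the type I interferon, NF-kB and hypoxia lists, one point per cell, in the Ccl3/Cxcl3 neutrophils (filled) and the other neutrophils (open) of the 4 libraries, with a bar at the median. The hypoxia median in Ccl3/Cxcl3 neutrophils is 1.58% in ctrl, 0.575% in 2DG, 1.13% in aPDL1 and 0.590% in 2DG_aPDL1.

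Both contrasts of 2DG, alone over ctrl and with aPDL1 over aPDL1, gave 34 genes at least 1.5-fold higher and 80 lower of 795 compared, or 4.28% and 10.1%. TMM made this 5 and 270. The minimum count is on raw UMIs in the higher library of a pair. In both pairs the library without 2DG held more UMIs: 4260711 in ctrl against 58342 in 2DG, and 125344 in aPDL1 against 67917 in 2DG_aPDL1. Genes higher without 2DG therefore passed more readily, so the filter favours the count of lower genes. Cxcl10, which attracts T cells through CXCR3, was at 87.1 CPM in ctrl, 857 in 2DG, 79.8 in aPDL1 and 839 in 2DG_aPDL1. It came from only 5 and 7 cells in the libraries with 2DG, and 1 cell gave 86.0% of its 2DG UMIs. Without the deepest cells its ratios were 3.51 and 2.97. C3, the complement component, was at 215, 514, 255 and 618 CPM, with ratios of 1.28 (0.68 to 1.78) and 1.27 (0.58 to 1.99), and without the deepest cells 1.1 and 1.26. Lyz2 and Mmp9 also ranked here, but the deepest cell mattered: the Lyz2 ratio in the aPDL1 pair went from 3.18 to 1.90 and that of Mmp9 in 2DG from 2.88 to 1.60. Gm14023 was at 123, 274, 112 and 501 CPM.

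Lower in both 2DG pairs was Stfa2l1, a stefin-like protease inhibitor, at 644 (620 to 669), 120 (48.2 to 247), 630 (499 to 785) and 118 (50.9 to 232) CPM. The intervals of the 2 libraries with 2DG lay below those of the 2 without. Stefin genes are near-identical copies, so reads may be shared among them. Bsg, a chaperone of lactate transporters, was at 496, 85.7, 327 and 88.3 CPM. Cpeb2, which regulates translation, was at 731, 137, 1300 and 398 CPM. Sfmbt2, Ddi2 and 1810026B05Rik also ranked as lower, with 1 or 2 UMIs in 2DG and 4 or 5 in 2DG_aPDL1.

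Both contrasts of aPDL1, which reuse the same 4 libraries, gave 15 genes at least 1.5-fold higher and 14 lower of 477 compared, or 3.14% and 2.94%. TMM made this 4 and 52. Irf1, a transcription factor of the interferon response, was at 406 CPM in ctrl, 720 in 2DG, 838 in aPDL1 and 1620 in 2DG_aPDL1, with ratios of 1.05 (0.75 to 1.33) and 1.16 (0.65 to 1.72). In cells with a lead of 5 UMIs the first Irf1 ratio was −0.10. Gbp5, which promotes inflammasome assembly, was at 55.4, 206, 223 and 442 CPM. Tnfaip2, Marcksl1, Slfn5 and Gna13 completed the ranking, with ratios of 1.75 and 1.35, 2.76 and 1.31, 1.5 and 0.99, and 0.95 and 1.39. In cells with 1000 detected genes the second Marcksl1 ratio was −1.20 and the first Slfn5 ratio −0.52. Irf1, Gbp5, Tnfaip2 and Marcksl1 were also higher in 2DG than in ctrl in CPM.

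Wfdc17, a whey acidic protein, was lower in both aPDL1 pairs and in both 2DG pairs, at 3793 (3735 to 3852), 1114 (860 to 1420), 1197 (1013 to 1404) and 427 (286 to 613) CPM. It was at 4355, 1266, 1349 and 738 CPM in the other neutrophils, in the same order. Gpat3, which begins triglyceride synthesis, was at 405, 514, 183 and 133 CPM. Spp1, osteopontin, was at 677, 668, 335 and 309 CPM, and 1 cell gave 87.2% of its 2DG UMIs. With 1000 detected genes its aPDL1 ratio to ctrl was 0.06. Hspa1b, a heat shock protein, was at 395, 686, 23.9 and 0 CPM. Wfdc21 was also in the ranking, but without the deepest cells its ratio of 2DG_aPDL1 to 2DG was 0.51. So was Retnlg, which the rule used.

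Ctrl lay at least 1.5-fold above all 3 treated libraries for 283 of 6443 genes compared (4.39%) and below all 3 for 475 (7.37%). TMM made this 1201 and 118. Many of these rest on a few UMIs in treated cells. The ratios add 0.5 to each count, which raises CPM more in the small treated sums than in ctrl. A single UMI also weighs more there. Genes with few UMIs were thus more readily called below the treated libraries, so the method favours that count in plain CPM. With a mean of at least 200 CPM over the 4 libraries, the 758 calls of both directions became 101. Slc24a3, a sodium, potassium and calcium exchanger, was at 167 CPM (155 to 180) in 192 ctrl cells and at 0, 23.9 and 0 CPM. Gm20732 was at 193 CPM (180 to 207) in 328 ctrl cells and at 17.1, 31.9 and 14.7 CPM. In the other neutrophils Slc24a3 was at 126, 14.8, 27.6 and 3.80 CPM and Gm20732 at 144, 35.2, 55.2 and 53.2 CPM. Tmem267, Ccl24 and Plcb1 were in 25, 18 and 45 ctrl cells and at 0 in the treated cells, and Ngp came mostly from 1 cell. Ccl24 turned sign without high doublet scores (−0.37) and Plcb1 when up to 1 UMI of each excluded group was allowed (−0.97). Below the treated libraries were Icam1 and H2-Q7, given above, and Dusp2, Ly6a, Riok2 and Daxx. Daxx was at 17.1, 85.7, 71.8 and 147 CPM, and its 5 UMIs in 2DG were in 1 cell. With 1000 detected genes Daxx was higher in ctrl (0.63).

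Ribosomal protein genes illustrate the weight of a single cell. In 2DG_aPDL1, 40 of 43 were at least 1.5-fold above ctrl, with a median of 1.26. One cell held 45.7% of the list's UMIs. In the deepest cell ribosomal protein genes gave 13.5% of UMIs, against a median of 1.96%. Without the deepest cells, 19 of 43 passed and the median was 0.53.

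The ctrl cells are many enough to be described among themselves. They were split into 4 groups of 205 or 206 cells by the share of UMIs from Ccl3 and Cxcl3, whose medians were 0.341%, 0.722%, 1.13% and 1.74%. Across them, from low to high, Ccl4 was at 1177, 2568, 3593 and 5642 CPM. Cxcl2 was at 22649, 30765, 36553 and 44901 CPM. Ccl6 was at 2113, 2931, 3400 and 5003 CPM. Il1rn was at 1195, 1457, 1822 and 2223 CPM, and Il1a at 349, 477, 592 and 664 CPM. Each of these 5 secreted factors was lowest in the first group and highest in the last, whereas Il1b, given below, was not. The share of all genes with this order is not given. The groups were made with genes of the rule in 1 library, so these values describe that library.

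Slc7a11, a cystine transporter, was also lowest in the first group and highest in the last, at 1034, 1359, 1579 and 2226 CPM. Hilpda was at 2338, 2487, 2339 and 2861 CPM and Cd274 at 1651, 2012, 1970 and 1933 CPM. Il1b was at 3405, 4214, 4182 and 3209 CPM, with the highest values in the middle. G0s2 was at 2244, 3148, 3250 and 2546 CPM and Acod1 at 3162, 4706, 5115 and 4516 CPM. S100a8 was at 10260, 13647, 15335 and 13661 CPM. Arg1, which breaks down arginine, was at 439, 211, 232 and 52.6 CPM, highest in the first group. The groups held 10, 4, 0 and 3 cells with 5 or more MHC class II UMIs.

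**Figure D5:**
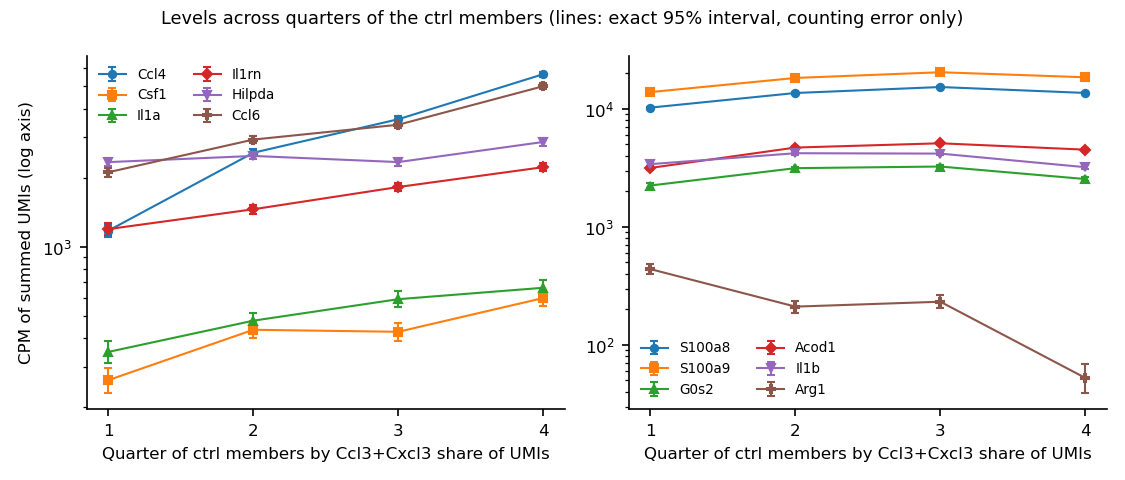
Levels in CPM on a log axis of 12 genes (6 in each panel) in the 4 groups of ctrl Ccl3/Cxcl3 neutrophils, ordered from 1 to 4 by their Ccl3 and Cxcl3 share of UMIs, with exact Poisson 95% intervals. Ccl4 goes from 1177 to 5642 CPM, whereas Il1b is at 3405 CPM in the first group and 3209 CPM in the last.

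Ctrl cells were also split by which of the 2 chemokines was at least 2-fold ahead: 195 leaned to Ccl3, 325 to Cxcl3, and 301 were between. Median UMIs were 3623, 3892 and 4093. Of 4359 genes compared, 6.35% were at least 1.5-fold higher in the Ccl3-leaning cells and 11.1% lower, with a median of −0.06. Ccl4 was at 4335 CPM in the Ccl3-leaning and 2150 CPM in the Cxcl3-leaning cells (log2 ratio 1.01). The type I interferon list had 14 of 36 genes at least 1.5-fold higher and none lower, with a median of 0.57. Rsad2 was at 1232 against 515 CPM and Isg15 at 657 against 425 CPM. The hypoxia list had 0 higher and 4 of 27 lower, with a median of −0.18. Spp1, chosen after its values were seen, was at 439 against 1078 CPM, and Slc2a3, likewise chosen, at 189 against 325 CPM. The split uses genes of the rule and compares cells of 1 library, so these values describe that library.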

How the data were processed

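Per the labels' protocols, droplet libraries were made with 10x Genomics 3′ chemistry (v3.1) from polyadenylated RNA. The deposited values are raw UMI counts of 32285 genes by barcode. The submitters' processing notes name Cell Ranger 3.1.0 and mm10, whereas Cell Ranger 7.0.0 stands in the count matrices, per the file headers. Other steps are not given in the sources used here. Where symbols repeated, the row with most UMIs was kept under the symbol.

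Cells were gated as the report states, with no clustering. Doublets were kept; removing the highest Scrublet scores (scanpy 1.11.5, 0.8% per 1000 barcodes) is an alternative. UMIs were summed per library and class. Log2 ratios used 0.5 added to each count, and a gene was compared with at least 30 UMIs in the higher sum. No model test was run, since each group has 1 library. TMM factors came from edgeR 4.0.16 (R 4.3.3), and other steps from Python 3.11.15 with numpy 2.4.6, scipy 1.17.1 and pandas 2.3.3. The ratio scripts were tested on simulated data.

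The cells, the 25 gene lists and the 14 marker lists were chosen with earlier results of these data known. Of 740 listed genes 9 are not analysed here. Named genes were the rule's genes and markers, Cd274, Siglecf, Il1b, Tnf, Ccl4, Cxcl2, Vegfa, Hk2 and Slc2a1, up to 12 genes per direction against other neutrophils ranked by the smallest absolute ratio, up to 6 per direction in each treatment comparison, and up to 4 per list by UMIs. Receptor and immunoglobulin segment, haemoglobin, mitochondrial and sex-linked genes were left out of rankings. A ranked gene is not reported here. Csf1, Arg1 and Nos2 were named outside these rules. Other genes chosen after their values were seen are said to be so. Alternatives changed gate thresholds, doublets, scaling, minimum counts and libraries. Added after seeing the data were leaving out cells with 5 or more MHC class II UMIs, a 200 CPM mean in place of a minimum count, and leaving out the deepest cell.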

Additional observations from a re-analysis of the deposited data

Results flagged for a closer look

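In the summed Ccl3/Cxcl3 neutrophils, 3 gene lists lay on opposite sides of 0 in the 2 contrasts of one treatment. The interleukin and TNF family list (10 genes) had a median log2 ratio of 0.86 for aPDL1 over ctrl and −0.44 for 2DG_aPDL1 over 2DG. The stefin and whey acidic protein list (6 genes) had −0.52 for 2DG over ctrl and 0.71 for 2DG_aPDL1 over aPDL1. The type I interferon list (20 genes) had 0.77 for 2DG over ctrl and −0.37 for 2DG_aPDL1 over aPDL1. These differences were not tested, as each group is 1 library, and under TMM the 2 type I interferon medians are 0.07 and −0.80.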

How the results depend on the processing

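No paired analysis was possible because each group holds 1 library. With 1 library a group, leaving one out was possible only for the genes shared by all 4 in the comparison with other neutrophils, where 77 became 85 to 163 (123 without ctrl, 163 without 2DG_aPDL1). Of 95 alternatives to the shares and counts, 76 stayed within the interval or 1.5 times and 19 did not. Asking for a lead of 5 UMIs put the share at 42.7% in ctrl and 22.9% in aPDL1, and 1000 detected genes put it at 16.7% in aPDL1. Against other neutrophils, no minimum count gave 2365 genes and at least 100 UMIs gave 37. For the 2DG pairs, 114 became 53 with 1000 detected genes, 275 with TMM, 25801 with no minimum and 28 at 100 UMIs. For the aPDL1 pairs, 29 became 45, 56, 1873 and 6 in the same order. For ctrl outside the treated libraries, 758 became 1319 with TMM, 24757 with no minimum, 403 at 100 UMIs and 101 with a 200 CPM mean. Without the deepest cells, 75 of the 114, 20 of the 29 and 562 of the 758 genes kept their call.

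Over 96 ratios of the named genes (medians of 4 libraries against other neutrophils, and the ranked treatment and ctrl ratios), 10 of 1056 alternatives turned the sign. With 1000 detected genes these were Marcksl1 (−1.20, 2DG_aPDL1 over 2DG), Slfn5 and Spp1 (−0.52 and 0.06, aPDL1 over ctrl) and Daxx (0.63, ctrl over the nearest library). A lead of 5 UMIs gave Irf1 −0.10 for aPDL1 over ctrl. Ccl24 was −0.37 without high Scrublet scores, Plcb1 −0.97 with up to 1 UMI of each excluded group, Ngp −0.68 without MHC class II cells and −0.79 without the deepest cell, and Wfdc21 0.51 without the deepest cell. Over 49 list medians (ctrl against other neutrophils, and the mean of the treated libraries over ctrl), 5 of 539 did. Ratios outside these sets, such as list medians of single treated libraries, are not in these counts, and TMM turned some of them. TMM gave −0.23 for the interleukin and TNF family list, −0.46 for adhesion, −0.03 for apoptosis and −0.34 for oxidative phosphorylation, each treated over ctrl. The oxidative phosphorylation value rests on 1 gene, the only one of 40 listed that was compared. Allowing up to 1 UMI of excluded groups gave adhesion 0.02 against other neutrophils in ctrl. The cause was not tested. Depth limits the treated cells, where 3 UMIs are the floor.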

Other observations

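Genes of cell death and of stress, not described above, were compared with ctrl in the Ccl3/Cxcl3 neutrophils. Of 12 apoptosis and survival genes, 7 were at least 1.5-fold higher in 2DG, 6 in aPDL1 and 7 in 2DG_aPDL1, and 1, 0 and 1 lower, with median log2 ratios of 0.61, 0.68 and 0.68 in CPM and −0.09, 0.21 and −0.22 with TMM. Of 13 oxidative stress and iron genes, 8, 2 and 6 were higher and 0, 3 and 2 lower, with medians of 0.86, −0.41 and 0.27 in CPM and 0.16, −0.88 and −0.63 with TMM. Of all 888 genes compared, 24.2%, 20.5% and 26.1% were higher and 21.3%, 15.8% and 24.8% lower. The heat shock list of 6 genes had medians of 0.17 (−0.53 with TMM), −0.09 and −1.30, against −1.31, −0.80 and −1.22 in the other neutrophils. Ccrl2, a receptor that binds chemerin without signalling, was at 592 CPM in ctrl, 1783 in 2DG, 1308 in aPDL1 and 1914 in 2DG_aPDL1, and at 526, 577, 435 and 1703 CPM in the other neutrophils. Nos2, the inducible nitric oxide synthase, was at 248 CPM in ctrl against 17.1, 79.8 and 73.6 CPM in the treated libraries, where it rested on 1 to 10 UMIs.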
